A study of Mus musculus with 24 samples.

Results

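Microglia without CD14 were compared after 3 h of lipopolysaccharide (LPS) at 10 ng/ml and without treatment. The comparison takes 6 of the 24 RNA-seq libraries of the series, 3 with LPS and 3 untreated, chosen by genotype, stimulus and dose as the labels give them. All 6 came from microglia of newborn (p0) B6.129S4-Cd14tm1Frm/J mice (KO), so both groups carry the same deletion of Cd14. The stimulus was Re-LPS, a form of LPS without the O-polysaccharide chain. The other 18 libraries were KO cells with LPS at 0.1 ng/ml or with mouse fibronectin, and C57BL/6 wild-type cells (WT) untreated or under the same 3 stimuli, with 3 libraries in each of 8 groups. The series describes 3 independent cell preparations per condition, and TruSeq libraries were made from 500 ng of total RNA and run on a HiSeq2000. The deletion is present in all cells of the mouse and not only in microglia.

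LPS is a cell-wall component of Gram-negative bacteria. CD14 is a surface protein that takes up LPS and hands it to the receptor TLR4 and its partner MD-2 (gene Ly96). TLR4 signals from the cell surface through the adaptors TIRAP and MyD88 to the transcription factor NF-kB, which drives genes of cytokines, chemokines and its own inhibitors. After uptake into endosomes, a step known to need CD14, TLR4 signals through TRAM and TRIF (genes Ticam2 and Ticam1) to IRF3, which drives interferon beta and through it the antiviral genes. At a high dose LPS can reach TLR4 without CD14, and the comparison shows which genes KO microglia changed under that condition.

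Total counts ran from 14973622 to 20412902 per library in the 6 and from 14939019 to 22143774 in all 24. Of 18919 genes listed, 13294 passed a filter on low counts and were tested with edgeR's quasi-likelihood test. A gene was called at a Benjamini-Hochberg adjusted p under 0.05. Levels are given as CPM, the share of a gene in a library of fixed size, where library sizes carry edgeR's TMM factors. Each change is a fold on the log2 scale, given ± its standard error, with 3 libraries per group. The factors were 0.804 to 0.972 with LPS and 1.204 to 1.347 untreated. The first principal component of the 6 libraries held 50.6% of the variance and separated the treatments, and the second held 27% and separated replicate 1 from replicates 2 and 3 in both groups. Libraries are bulk RNA, so fewer cells of a type and less RNA per cell cannot be told apart.

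Cd14, on chromosome 18, was at 4.58, 4.14 and 3.05 CPM in the untreated KO libraries and at 6.37, 4.84 and 3.32 CPM with LPS. The groups overlapped (0.30 ± 0.50, edgeR adjusted p = 0.721). Untreated WT libraries held 1150, 639 and 338 CPM and those with LPS at 10 ng/ml held 5329, 3779 and 2349 CPM. All 14 microglia and macrophage markers were tested, and they summed to 12980 to 13600 CPM untreated and 12990 to 14250 CPM with LPS. These sums depend on the TMM factors. As a share of all counts the markers held 1.58 to 1.75% untreated and 1.15 to 1.35% with LPS. With TMM 4 of them were called up and 2 down, and with library totals 2 up and 7 down. Astrocyte markers (10 of 12 tested) summed to 15.03 to 25.6 and 12.1 to 27.1 CPM, and oligodendrocyte lineage markers (12 of 12) to 184 to 246 and 157 to 213 CPM. The neuron marker list (10 of 12) summed to 6.54 to 82.0 and 7.18 to 115 CPM, highest in replicate 2 of both groups, where Dcx, a protein of young neurons, held 37.4 and 52.8 CPM. Vascular and fibroblast markers (6 of 14 tested) summed to 59.8 to 65.6 CPM untreated and 113 to 119 CPM with LPS, without overlap. The 8 untested members of that list included the endothelial gene Cldn5 and the collagen genes Col1a1, Col1a2 and Col3a1. Pdgfrb, a growth factor receptor of pericytes and fibroblasts, was the 1 called member of that list, at 0.145, 0.293 and 0.0555 CPM untreated and 21.8, 29.3 and 18.6 CPM with LPS (7.01 ± 0.78, edgeR adjusted p = 8.5e-07). Gja1, a gap junction protein and the 1 called astrocyte marker, was at 0, 0.22 and 0.444 CPM untreated and 0.78, 1.72 and 1.42 CPM with LPS (edgeR adjusted p = 0.015). Elavl4, an RNA-binding protein of neurons and the 1 called neuron marker, was at 1.88, 3.85 and 1.66 CPM untreated and 9.62, 9.89 and 3.05 CPM with LPS (edgeR adjusted p = 0.0196), with overlap. No member of the neuron list was called without LPS replicate 1 or 2 or untreated replicate 1 or 3, each left out in turn. The part of these other cells in any result was not tested.

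KO microglia answered the high dose with a broad change. In all, 5697 genes were called, 42.9% of those tested, with 2819 up (21.2%) and 2878 down (21.6%). Rises were larger than falls: 449 genes rose and 108 fell by at least 3 on the log2 scale, and 181 rose and 7 fell by at least 5. The 3 libraries of each group did not overlap for 6225 genes (46.8%), of which 5389 were called. The genes called up held 23.2 to 24.9% of all counts in untreated libraries and 50.8 to 51.4% with LPS. TMM takes most genes as unchanged, and with library totals alone the split became 1502 up and 5630 down, with a median over all genes of -0.50 in place of -0.01. With upper-quartile scaling the median was -0.24 and 34.9% of called genes were up, against 49.5%. With the replicate number as a block within genotype, 8778 genes were called, 4232 up and 4546 down. The plot of fold change against level shows the cytokine genes at the upper right and the receptor genes Cnr2 and Cxcr4 at the bottom.

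**Figure D1:**
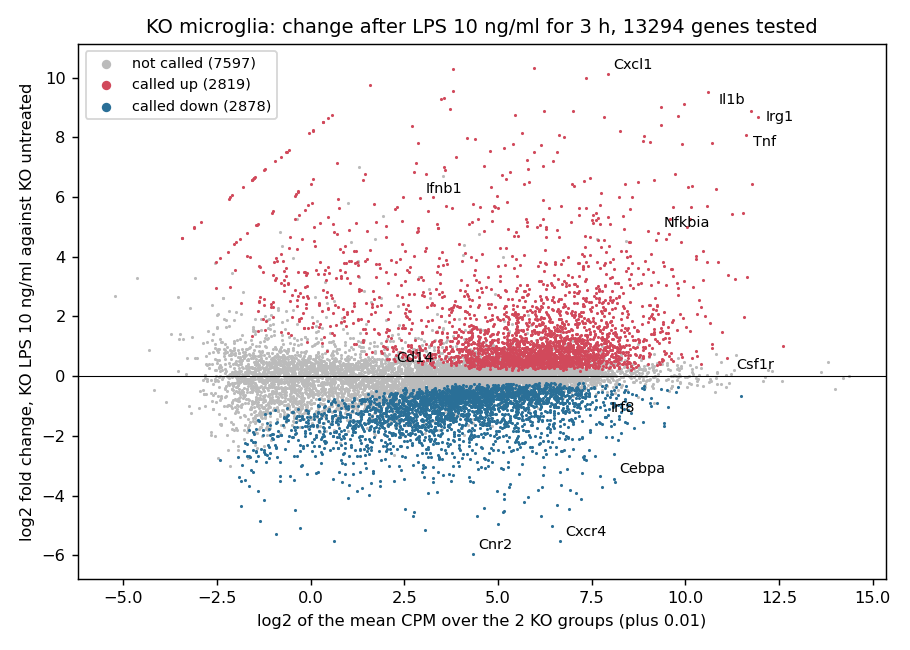
Log2 fold change of KO cells with LPS at 10 ng/ml against untreated KO cells (vertical axis) by log2 of the mean CPM of both groups plus 0.01 (horizontal axis), with 1 point for each of 13294 genes tested. Red points are the 2819 genes called up and blue points the 2878 called down, and the rises reach further from 0 than the falls.

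The promoters of 3 genes called up are shown so that the letters of NF-kB and interferon-response motifs can be seen in sequence. They are from RefSeq (GRCm38.p6), from 250 bases before to 50 bases after the start of the gene, 5′ to 3′ on the gene's strand. Capitals mark matches on either strand to the NF-kB consensus, to the core of the interferon-stimulated response element (ISRE, TTTCNNTTTC) or to the AP-1 site (TGANTCA). Cxcl10 encodes a chemokine induced by interferon and NF-kB, Nfkbie an inhibitor of NF-kB, and Tnf the cytokine TNF.
Cxcl10, chr5:92348840-92349139, minus strand: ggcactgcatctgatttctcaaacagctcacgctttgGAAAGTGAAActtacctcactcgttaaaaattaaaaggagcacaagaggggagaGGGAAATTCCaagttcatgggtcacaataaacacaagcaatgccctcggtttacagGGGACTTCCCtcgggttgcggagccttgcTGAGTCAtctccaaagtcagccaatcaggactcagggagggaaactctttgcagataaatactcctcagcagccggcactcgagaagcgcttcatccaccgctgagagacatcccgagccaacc
Nfkbie, chr17:45555450-45555749, plus strand: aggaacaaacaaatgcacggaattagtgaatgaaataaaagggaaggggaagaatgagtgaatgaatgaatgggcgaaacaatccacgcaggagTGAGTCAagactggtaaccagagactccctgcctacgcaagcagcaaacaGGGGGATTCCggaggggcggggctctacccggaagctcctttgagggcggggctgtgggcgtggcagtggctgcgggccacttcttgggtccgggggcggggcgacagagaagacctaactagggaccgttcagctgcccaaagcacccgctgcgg
Tnf, chr17:35201958-35202257, minus strand: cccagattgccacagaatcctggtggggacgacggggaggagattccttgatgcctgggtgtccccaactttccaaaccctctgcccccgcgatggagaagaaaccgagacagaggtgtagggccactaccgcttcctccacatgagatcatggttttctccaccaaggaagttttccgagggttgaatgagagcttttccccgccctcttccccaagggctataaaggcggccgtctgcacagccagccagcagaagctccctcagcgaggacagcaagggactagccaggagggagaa
The Cxcl10 window held 2 matches to the NF-kB consensus, 1 to the ISRE core and 1 to AP-1. The Nfkbie window held 1 match to NF-kB and 1 to AP-1. The Tnf window held 0 of these letters, which says nothing of sites outside it or of other spellings. Among 10468 promoters of tested genes, 5.13% held the NF-kB consensus, 3.2% the ISRE core and 4.97% the AP-1 site. RefSeq promoters were matched for 78.7% of the genes tested, under the 80% set for a comparison between classes of genes, so none was made. A match is a run of letters and not a measured binding site.

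Of the receptor and its adaptors, 22 of 23 listed genes were tested, 12 rose and 3 fell (14 and 5 with the replicate block, 7 and 6 with library totals). The median of the list was 0.64 in KO and 0.74 in WT cells at the same dose, against -0.01 for all genes in both. Tlr4 itself was at 110.1, 68.6 and 116 CPM untreated and 88.9, 39.5 and 45.8 CPM with LPS. One LPS library lay within the untreated range and the gene was not called (-0.76 ± 0.32, edgeR adjusted p = 0.0653), but it was with the replicate block (-0.80, adjusted p = 0.000296). It was also called by limma (adjusted p = 0.0431), among genes reaching 5 CPM in 3 libraries (0.0446), with upper-quartile scaling (0.00772) or library totals (0.00108), and without LPS replicate 1 (0.00667) or untreated replicate 2 (0.034). Ly96, whose product MD-2 binds the lipid part of LPS, was at 8.44, 8.62 and 16.5 CPM untreated and at 11.7, 11.2 and 12.3 CPM with LPS, and was not called. Ly86, the partner of the TLR4-like receptor CD180, was not called either (-0.16 ± 0.25), although it was with the block (-0.21, adjusted p = 0.0498) and with library totals (-0.66, adjusted p = 0.0405).

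The adaptor genes Myd88 and Ticam1 rose in KO cells. Myd88 was at 52.4, 48.7 and 54.7 CPM untreated and 322, 263 and 209 CPM with LPS, without overlap (2.35 ± 0.19, edgeR adjusted p = 2.12e-08). Ticam1, the TRIF adaptor, was at 32.2, 26.1 and 22.6 CPM untreated and 87.6, 74.5 and 94.7 CPM with LPS, again without overlap (1.67, adjusted p = 8.57e-06). Downstream of MyD88, the kinase gene Irak2 rose by 2.44 ± 0.29 and Irak3, an inhibitor of the pathway, by 2.93 ± 0.24. Ikbke, a kinase that acts on IRF3, rose the furthest of the list, by 4.19 ± 0.36, from a mean of 32.5 to 593 CPM. The 3 falls were in Tab1 (-1.55), an activator of the kinase TAK1, and in Cd180 (-0.59) and Irak4 (-0.57), a kinase that MyD88 recruits. Ticam2 (TRAM, 0.65, edgeR adjusted p = 0.0676), Irf3 (0.34, adjusted p = 0.0552) and Irak1, a kinase downstream of MyD88 (-0.01), were not called. Of the whole list, 14 genes rose at an unadjusted edgeR p under 0.05, and DESeq2 called 14 up. Ticam2 and Irf3 lay near the threshold and were not followed through the alternatives.
Of 10 tested genes of other Toll-like receptors, 4 rose and 4 fell. Tlr2, the receptor for bacterial lipoproteins, rose by 4.18 ± 0.32, from 196, 114 and 131 CPM to 2799, 2478 and 2736 CPM. Tlr3, which senses double-stranded RNA, rose by 1.78 ± 0.33.

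NF-kB genes rose nearly as a whole. Of 14 subunits, inhibitors and kinases, 13 were called up and 0 down, with a median of 3.35 (WT 3.48). In KO cells the exception was Ikbkg, the regulatory subunit of the IkB kinase, and with the replicate block all 14 were called up. Nfkbia, the main inhibitor of NF-kB, was at 50.1, 39.9 and 39.4 CPM untreated and at 1193, 1109 and 1307 CPM with LPS, without overlap (4.80 ± 0.26, edgeR adjusted p = 3.62e-10). Nfkbiz, a nuclear co-activator of Il6 and other late genes, rose by 5.27 ± 0.31 to 1429 to 1563 CPM. Nfkbie, whose promoter is printed above, rose by 5.08 ± 0.34 to 385 to 460 CPM. Nfkb2, the p100 subunit, rose by 4.08 ± 0.18. Replicate 3 was the lowest of the 3 LPS libraries in 1 of the 14 genes.

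Feedback inhibitors rose alongside. Of 24 tested, 21 rose and 1 fell, with a median of 3.53 (WT 3.74). Socs3, which blocks cytokine receptors that use STAT3, was at 4.92, 4.44 and 4.55 CPM untreated and at 1355, 926 and 923 CPM with LPS (7.85 ± 0.55, edgeR adjusted p = 3.66e-09). Dusp2, a phosphatase of MAP kinases, rose by 8.02 ± 0.56 and Traf1, an adaptor of TNF receptors, by 8.89 ± 0.69. Otud1, a deubiquitinase, stayed uncalled at 25.7 to 42.7 CPM untreated and 29.5 to 34.9 CPM with LPS (-0.14 ± 0.28).
Of 22 immediate early factors, 11 rose and 5 fell, with a median of 0.55.

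Of 22 inflammatory cytokine genes tested, 20 rose and 0 fell, with a median of 6.86 (WT 6.69). In 20 of the 22 every LPS library lay above every untreated one. Tnf was at 25.8, 14.3 and 29.4 CPM untreated and at 6929, 5036 and 6862 CPM with LPS (8.08 ± 0.58, edgeR adjusted p = 4.7e-09). All 3 LPS libraries lay far above the highest untreated one. Il1b, a cytokine released by the inflammasome, was at 14.4, 15.7 and 14.4 CPM untreated and at 7149, 5839 and 7792 CPM with LPS (8.87 ± 0.57, adjusted p = 1.67e-09). Il1a rose by 9.10 ± 0.70 to 1311 to 2428 CPM, and Il12b, the shared subunit of IL-12 and IL-23, by 9.02 ± 0.78 to 964 to 1882 CPM.
Il6 was at 0.675, 0.587 and 0.943 CPM untreated and at 336, 151 and 109 CPM with LPS (8.08 ± 0.73, edgeR adjusted p = 7.4e-08). The LPS libraries were spread, with replicate 1 the highest, and all lay far above the untreated ones. For genes with few untreated counts a ratio of pooled counts is given with its 95% interval, which covers counting error only. Csf2, the growth factor GM-CSF, held 1 untreated count and rose 1699 times (304.3 to 67140). Lif, a cytokine of the IL-6 family, held 3 and rose 570.2 times (194.7 to 2768). Osm, another member of that family, was uncalled (0.55 ± 0.35), at 11.5, 14.7 and 22.7 CPM untreated and 35.6, 13.5 and 22.4 CPM with LPS.

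Chemokines that attract neutrophils rose from near 0. Of 5 tested, 4 rose, with a median of 9.53 (WT 7.31). Cxcl1 was at 0.434, 0.293 and 0.61 CPM untreated and at 411, 373 and 678 CPM with LPS (10.11 ± 0.88, edgeR adjusted p = 5.13e-08). Cxcl2 was at 7.57, 2.38 and 2.61 CPM untreated and at 4045, 2018 and 3211 CPM with LPS (9.53 ± 1.13, adjusted p = 2.04e-06). Cxcl3 rose by 9.98 ± 1.49, and replicate 2 was the lowest LPS library for all of Cxcl1, Cxcl2 and Cxcl3. Cxcl5 held 0 untreated counts and 101 with LPS, and the lower end of the 95% counting interval of its ratio was 35.54.
Of 19 other chemokines, 16 rose and 1 fell (0 falls without LPS replicate 1 or 2 or untreated replicate 3), with a median of 5.46 (WT 6.03). Ccl5, which attracts T cells, was at 4.34, 3.45 and 4.27 CPM untreated and at 1283, 803 and 711 CPM with LPS (7.86 ± 0.72, edgeR adjusted p = 8.55e-08). Cxcl10 was at 13.5, 11.4 and 19.8 CPM untreated and at 5182, 3721 and 1156 CPM with LPS (7.82 ± 0.69, adjusted p = 5.67e-08). Ccl22, which attracts regulatory T cells, rose by 7.25 ± 0.74. Shisa3, a Wnt and FGF pathway antagonist, is in none of the lists. Its edgeR fold was the largest among genes of at least 5 CPM whose groups did not overlap. Shisa3 was at 0.193, 0.0367 and 0.0555 CPM untreated and 103, 129 and 144 CPM with LPS (10.31 ± 0.79). It held 6 untreated counts and rose 1382 times by pooled counts (95% counting interval 634.8 to 3769). By pooled counts the ratio of Csf2 was higher, with overlapping intervals, so the order of these genes is not firm. The plot of 15 genes by library shows Tnf and Il1b tightly grouped and Cxcl10 spread between replicates.

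**Figure D2:**
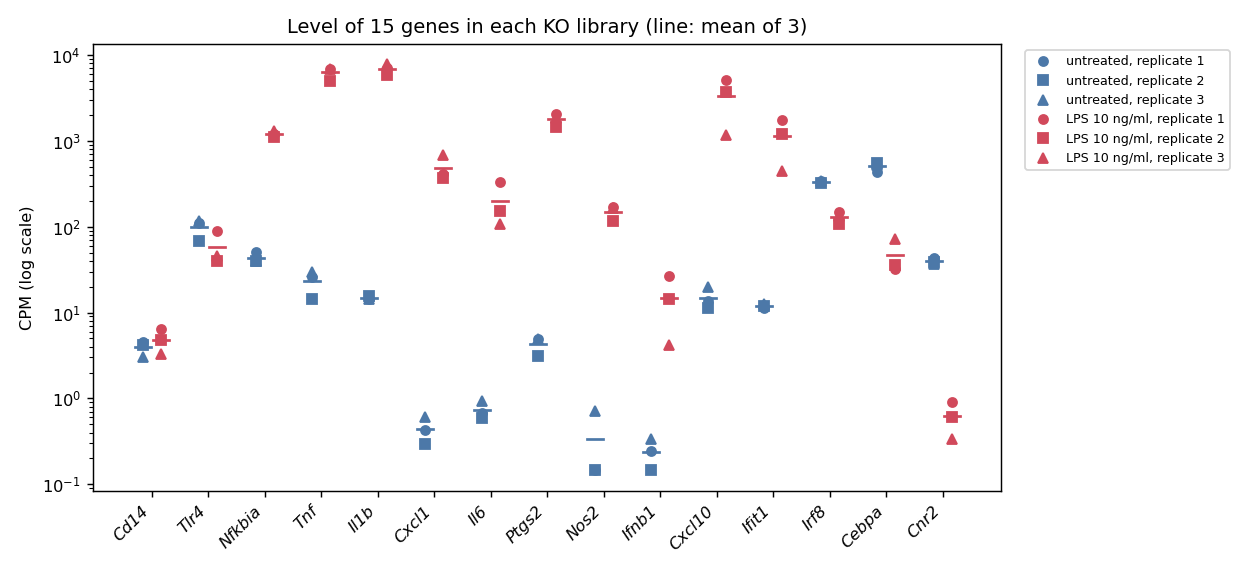
CPM on a log scale (vertical axis) of 15 genes (horizontal axis) in the 3 untreated KO libraries (blue) and the 3 KO libraries with LPS at 10 ng/ml (red), with a line at each mean and a symbol for each replicate number. Nfkbia, Tnf and Il1b lie close together with LPS, replicate 3 is lowest for Ifnb1, Cxcl10 and Ifit1, and the Cd14 groups overlap.

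The interferon arm also rose in KO cells, with a wide spread between replicates. Ifnb1, interferon beta, was at 0.241, 0.147 and 0.333 CPM untreated and at 26.5, 14.3 and 4.13 CPM with LPS (5.97 ± 0.77, edgeR adjusted p = 5.52e-06). All 3 LPS libraries lay above the untreated ones, and replicate 3 was the lowest. Of 41 antiviral interferon-stimulated genes tested, 35 rose and 0 fell (41 with the replicate block), with a median of 3.13. Ifit1, which binds viral RNA, was at 11.2, 12.1 and 12.6 CPM untreated and at 1753, 1209 and 440.1 CPM with LPS (6.57 ± 0.57, adjusted p = 4.55e-08). Mx1, an antiviral GTPase, was at 8.92, 12.1 and 7.16 CPM untreated and at 1332, 1009 and 209.7 CPM with LPS (6.50 ± 0.73, adjusted p = 1.01e-06).
Of 17 guanylate-binding proteins and immunity-related GTPases, which attack vacuoles of pathogens, 11 rose and 0 fell (16 with the block), with a median of 4.71. Gbp5 rose by 8.05 ± 0.55, from 3.12 to 4.38 CPM to 1228, 985 and 658 CPM. Of 18 genes of interferon signalling, 15 rose and 1 fell. Irf1, an interferon-induced transcription factor, rose by 4.85 ± 0.31 to 1335, 928 and 699 CPM. The 1 fall was Irf8, a lineage factor of microglia, at 342, 326 and 339 CPM untreated and 147, 109 and 132 CPM with LPS (-1.38 ± 0.15, edgeR adjusted p = 5.4e-07). Stat3 was not called (0.22 ± 0.15), at 118 to 141 CPM untreated and 124 to 179.6 CPM with LPS.

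Replicate 3 with LPS was low in this arm, and in some other lists. It was the lowest of the 3 LPS libraries for 41 of 41 antiviral genes and for 16 of 17 GTPases. The same held for 9 of 22 cytokines and 1 of 14 NF-kB genes. It was also the lowest for 15 of 20 MHC class I, 14 of 19 glycolysis and 34 of 38 cell cycle genes. The share over all genes was not counted. The antiviral genes summed to 25130, 19270 and 8960 CPM with LPS and to 1521, 2350 and 1449 CPM untreated. The GTPases summed to 4020, 3077 and 1640 CPM with LPS and to 111, 140.1 and 116 CPM untreated. By contrast the cytokine genes summed to 20900, 14670 and 19540 CPM with LPS and 365.7, 280.3 and 329.3 CPM untreated, with replicate 2 lowest in both. Without replicate 3 of the LPS group, 38 of 41 antiviral genes and 13 of 17 GTPases were called up. The cause of the lower interferon genes in that library was not tested. The plot of summed levels sets these lists beside the WT groups.

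**Figure D3:**
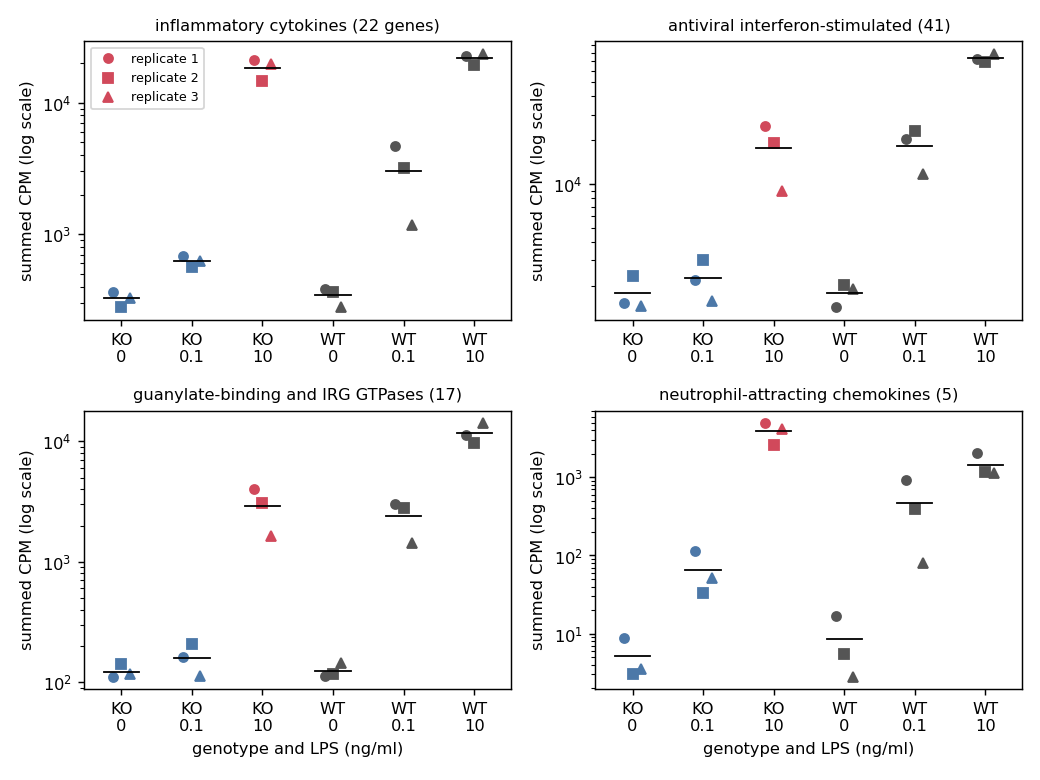
Summed CPM on a log scale (vertical axis) of 4 gene lists in each library of the groups with LPS at 0, 0.1 and 10 ng/ml (horizontal axis), KO in blue and red and WT in grey, with a line at each mean. KO libraries at 10 ng/ml (red) lie near the WT libraries at 10 ng/ml for cytokines, below them for antiviral genes and GTPases, and above them for neutrophil-attracting chemokines.

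Enzymes of inflammatory mediators rose in 16 of 22 genes, with 0 falls and a median of 2.21 (WT 1.75). Irg1, also named Acod1, makes itaconate, and was at 21.1, 15.5 and 21.1 CPM untreated and 11080, 7349 and 5106 CPM with LPS (8.67 ± 0.78, edgeR adjusted p = 6.18e-08). Nos2, the inducible nitric oxide synthase, was at 0.145, 0.147 and 0.721 CPM untreated and at 168, 116 and 166 CPM with LPS (8.87 ± 0.71, adjusted p = 1.79e-08). Ptgs2 (COX-2) and Ptges, which act in turn to make prostaglandin E, rose by 8.71 ± 0.61 and 8.67 ± 0.55.
Of glycolysis genes 42.1% were called, near the 42.9% of all genes, with 6 of 19 up, 2 down (3 and 4 with library totals, 0 down without LPS replicate 3 or untreated replicate 2) and a median of 0.21, which turned to -0.36 with library totals and -0.05 with upper-quartile scaling. The glucose transporter gene Slc2a1 rose by 2.92 ± 0.28, to 297 to 399 CPM, and the phosphofructokinase gene Pfkp by 1.08 ± 0.16.

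Genes of antigen presentation and costimulation rose. Of 20 tested in the MHC class I pathway, 18 rose and 0 fell, with a median of 1.37 (WT 1.97), and 10 were called up with library totals. Tap1, the peptide transporter, was at 45.6, 59.5 and 41 CPM untreated and at 354, 279 and 151 CPM with LPS (2.42 ± 0.26, edgeR adjusted p = 6.44e-07). Tapbp, which loads peptides on MHC class I, rose by 1.64 ± 0.20. Of 18 genes of MHC class II, costimulation and checkpoint ligands, 15 rose and 0 fell, with a median of 2.99 (WT 3.57). Cd69, an early activation marker, rose by 8.42 ± 0.51, from 2.99 to 5.49 CPM to 1470, 1360 and 1075 CPM. Cd40, a costimulatory receptor, rose by 8.20 ± 0.64 and Vcam1, an adhesion molecule, by 8.14 ± 0.62. H2-DMb1, which loads peptides on MHC class II, was not called and lay at 14.4, 7.84 and 8.49 CPM untreated and 12.2, 7.11 and 6.10 CPM with LPS.
In the 8 lists described with 0 falls, from NF-kB to MHC class II, 0 members fell at an unadjusted p under 0.05 by edgeR, DESeq2 or limma. With the replicate block 3 falls were called among the enzymes and 1 in the MHC class II list.

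Of genes with at least 5 CPM untreated and no overlap between groups, Cnr2 and Cxcr4 fell the furthest. Cnr2, the cannabinoid receptor of immune cells, was at 42.9, 38.5 and 36.7 CPM untreated and at 0.91, 0.605 and 0.339 CPM with LPS (-5.97 ± 0.53, edgeR adjusted p = 5.5e-08). Cxcr4, the receptor of the chemokine CXCL12, was at 129.9, 182 and 283 CPM untreated and 2.34, 1.41 and 9.28 CPM with LPS (-5.52 ± 0.82, adjusted p = 2.56e-05). The lack of overlap was a condition of the choice of both genes. The lysophosphatidic acid receptor genes Lpar6 and Lpar5 fell by 5.02 and 4.54, and Rtn4rl1, a relative of the Nogo receptor, by 4.96. Thbd, thrombomodulin, which restrains clotting, fell by 5.14. Zfp36l2, an RNA-binding protein that promotes mRNA decay, fell by 4.46, from 149 to 321 CPM to 4.19 to 15.7 CPM.
The list of G protein-coupled receptors moved both ways, with 13 of 33 up, 11 down and a median of -0.07. Among the rises, Adora2b, an adenosine receptor, went up by 7.02 ± 0.61 and Gpr84, a receptor for medium-chain fatty acids, by 6.36 ± 0.59 to 1785 to 2715 CPM.

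Homeostatic microglial genes, a list that includes Gpr84, fell in 9 and rose in 2 of 25 tested (13 and 5 with the replicate block, 16 and 2 with library totals), with a median of -0.34 (WT -0.41). Cx3cr1, the fractalkine receptor, fell from 1195, 973 and 968 CPM to 311, 407 and 326 CPM (-1.59 ± 0.21, adjusted p = 6.86e-06). Tmem119, a microglial surface marker, was higher, at 18.9, 12.4 and 8.32 CPM untreated and 37.7, 31.2 and 44.2 CPM with LPS (1.51 ± 0.44, adjusted p = 0.00915). Csf1r, the survival receptor of microglia, was not called, at 2771, 2427 and 1834 CPM untreated and 2792, 2547 and 1959 CPM with LPS.
Of 20 myeloid transcription factors, 9 rose and 7 fell. Cebpa, a factor of myeloid differentiation, fell by 3.43 ± 0.36, from 436 to 548 CPM to 31.8 to 72.0 CPM. Tfec, a factor of the MiT family found in macrophages, rose by 5.39 ± 0.38, from 6.21 to 10.8 CPM to 321 to 396 CPM.

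The share called, without the replicate block, was 42.9% for phagocytic and for efflux genes and 44% for homeostatic genes, near that of all genes. It was 28.1% for lysosome, 28% for sterol and 18.4% for cell cycle genes. The block called 8778 of all 13294 genes. With it 3 of 38 cell cycle genes rose and 30 fell, so their low share did not hold there. Phagocytic, scavenger and Fc receptors rose in 10 and fell in 2 of 28 genes (14 and 6 with the block, 7 falls with library totals, 4 without LPS replicate 1 and 5 without untreated replicate 3), with a median of 0.39 that became -0.10 with library totals. Clec4e, a sensor of mycobacterial glycolipid, rose the most among them, by 7.76 ± 0.79. Mertk, a receptor for the uptake of dying cells, fell by 2.22 ± 0.25. Lysosome genes rose in 3 and fell in 6 of 32 (16 falls with the block, 21 with library totals, 2 without LPS replicate 1, and 3 without LPS replicate 2 or without untreated replicate 3). Tfeb, a regulator of lysosome genes, fell by 1.99 ± 0.32, while Ctsc, a protease that activates other proteases, rose by 1.65 ± 0.25.
Among cell death and survival genes, 20 rose and 4 fell of 33 (7 falls with library totals, 2 without untreated replicate 1), with a median of 1.11. Nlrp3, the inflammasome sensor, rose by 5.69 ± 0.32, from 51.9 to 62.0 CPM to 2759 to 3187 CPM. Fas, a death receptor, rose by 5.19 ± 0.46, and Bmf, a killer of the BCL-2 family, fell by 3.84 ± 0.53.

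Sterol and fatty acid synthesis genes rose in 3 and fell in 4 of 25 (7 and 10 with the block, 10 falls with library totals), with a median of -0.09. Srebf2, a transcription factor that drives cholesterol synthesis genes, rose by 0.95 ± 0.18. Dhcr7, the last enzyme of cholesterol synthesis, fell by 1.45 ± 0.17. In the efflux and oxysterol list 3 rose and 3 fell of 14 (6 and 5 with the block), and Ch25h, which makes 25-hydroxycholesterol, rose by 4.48 ± 0.86. Cell cycle genes rose in 2 and fell in 5 of 38 (3 and 30 with the block, 13 falls with library totals), with a median of -0.83. Those counts of falls ran from 3 to 8 as single libraries were left out, with 3 without untreated replicate 1 or LPS replicate 3 and 8 without untreated replicate 3 or LPS replicate 1. Replicate 3 was the lowest library for 34 of the 38 with LPS and 36 of 38 untreated. The rises were in Cdkn1a, an inhibitor of the cycle, by 3.81 ± 0.35 to 3047 to 4355 CPM, and in Ccnd2, a G1 cyclin, by 4.10 ± 0.66.
Stress genes rose in 9 and fell in 3 of 22 (16 rises with the block), with Herpud1, of the degradation of misfolded proteins, up by 3.80 ± 0.38 and Asns, which makes asparagine, by 1.62 ± 0.30. Matrix, protease and coagulation genes rose in 19 and fell in 5 of 31 (8 falls with the block or library totals), with a median of 2.56 (WT 1.43). Mmp13, a collagenase, rose by 6.76 ± 0.51 to 1323 to 2034 CPM and F3, tissue factor, which starts clotting, by 5.68 ± 0.97.

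**Figure D4:**
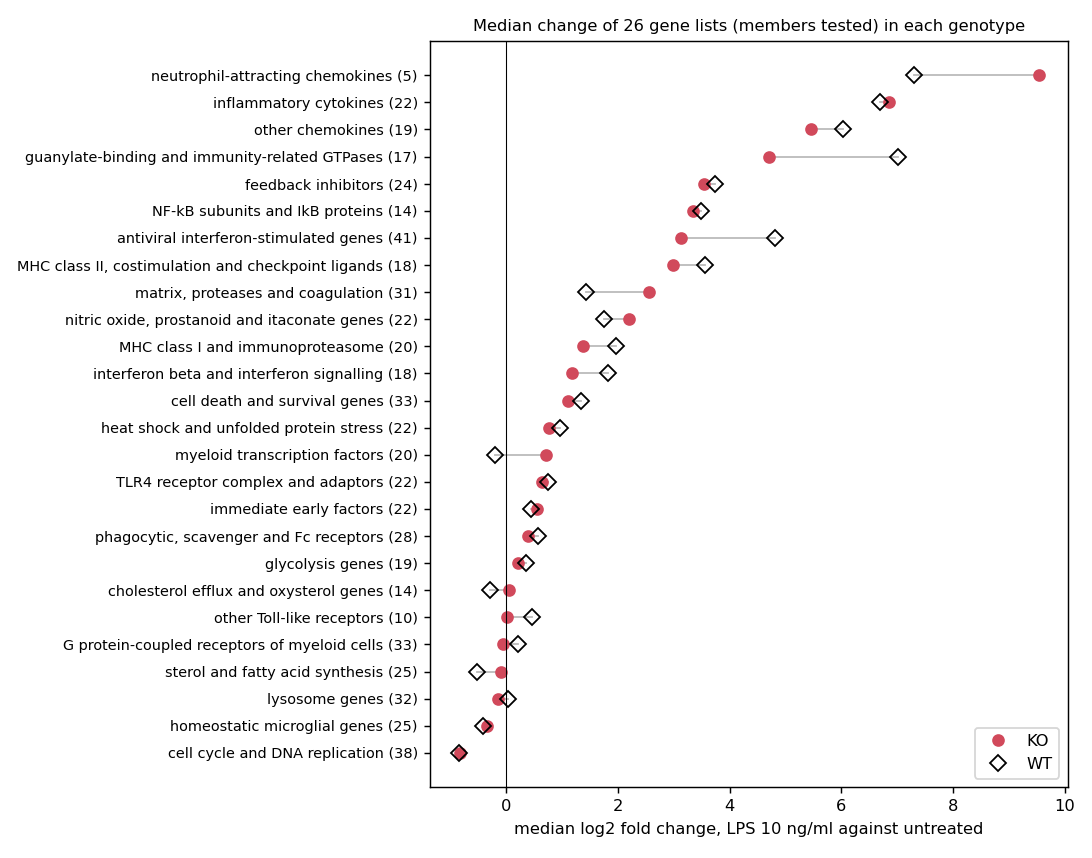
Median log2 fold change (horizontal axis) of LPS at 10 ng/ml against untreated cells over the tested members of 26 gene lists (vertical axis, number tested in brackets), KO as filled circles and WT as open diamonds. NF-kB genes, feedback inhibitors and cytokines have close medians in both genotypes. The antiviral genes (3.13 and 4.80) and GTPases (4.71 and 7.01) have lower medians in KO. Taken gene by gene, the median difference, KO minus WT, was -0.10 for NF-kB genes, -0.40 for feedback inhibitors and -1.09 for cytokines.

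The same dose in WT cells shares no library with the KO comparison, so the responses can be set side by side and their difference tested. WT cells at 10 ng/ml had 6570 genes called (49.4%), 3097 up (23.3%) and 3473 down (26.1%). Over all genes tested, 2372 were called up in both genotypes and 2490 down in both, 778 were called in KO and not in WT, and 1651 in WT and not in KO. A call in 1 genotype alone does not show a difference. The difference itself, the KO response minus the WT response, was called for 702 genes (5.28%), with 261 higher (1.96%) and 441 lower (3.32%) in KO. With library totals the split was 927 higher and 265 lower, and with the replicate block 1507 higher and 1380 lower. Leaving out single libraries gave 428 (without KO LPS replicate 3) to 833 calls, with 467 without WT untreated replicate 1, and a fit of these 4 groups alone gave 441.

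The list of NF-kB subunits had 0 of 14 called in the difference by edgeR, DESeq2 or limma, 2 at an unadjusted edgeR p under 0.05 and 2 with the block. With 5.28% of all genes called, a count of 0 in so short a list is near the share over all genes. Tnf reached 7401, 6164 and 6379 CPM in WT cells at this dose, next to 5036 to 6929 CPM in KO, and its difference was 0.10 ± 0.60 (edgeR adjusted p = 1). The difference of Il1b was 0.56 ± 0.58 and that of Ccl5 was -0.67 ± 0.77, both uncalled. Cxcl1 held 1.42 ± 1.08 and Cxcl2 2.22 ± 1.15 (adjusted p = 0.391), the latter called with the block (1.94, adjusted p = 0.0397). Summed over the 5 neutrophil-attracting chemokines, the levels were 4939, 2576 and 4212 CPM in KO and 2030, 1159 and 1139 CPM in WT at 10 ng/ml, which do not overlap. Of the 5 genes, 0 were called in the difference by edgeR or DESeq2, 1 by limma and 1 at an unadjusted edgeR p under 0.05.
The difference of Il6 was -2.38 ± 0.92, uncalled by edgeR (adjusted p = 0.178) and called by DESeq2 (-2.44, adjusted p = 0.04). Of 22 cytokines, 3 responded less in KO and 0 more, with a median difference of -1.09. At an unadjusted edgeR p under 0.05, 8 responded less and 0 more.

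Ifnb1 reached 214, 185 and 133 CPM in WT cells and 26.5, 14.3 and 4.13 CPM in KO, without overlap (difference -5.65 ± 1.29, edgeR adjusted p = 0.0135). The WT cells held 3 untreated counts of Ifnb1 in all and rose 3624 times (95% counting interval 1240 to 17580), so the size of that difference depends on few counts. Cxcl11, an interferon-induced chemokine, reached 130.1, 132 and 240 CPM in WT and 15.02, 14.5 and 3.32 CPM in KO (-5.00 ± 0.88, adjusted p = 0.00256). Cxcl10 reached 13770, 11010 and 15310 CPM in WT, above all KO libraries, and its difference was called with the block (-2.58, adjusted p = 0.0141) and by DESeq2 (-2.23, adjusted p = 0.0211), and not by edgeR without the block (-2.20, adjusted p = 0.107). Irf1 was not called by edgeR without the block (-1.21, adjusted p = 0.0758), and was with it (-1.24, adjusted p = 0.00767), by DESeq2 (-1.24, adjusted p = 0.0163) and without KO LPS replicate 1 (-1.49, adjusted p = 0.0242).
The antiviral list had a median of 4.80 in WT and 3.13 in KO, and 10 of 41 responded less in KO (34 with the block, 21 by DESeq2, 6 with library totals or no filter, 5 in a fit of the 4 groups alone). Without single libraries that count ran from 3 to 14. It was 3 without KO LPS replicate 3, KO untreated replicate 2 or 3, WT LPS replicate 3 or WT untreated replicate 1, 4 without WT LPS replicate 1 or WT untreated replicate 2, and 6 without KO LPS replicate 2. Of the 17 GTPases, 5 responded less (9 with the block, 3 without KO untreated replicate 1 or 2, in a fit of the 4 groups alone or without the 3 libraries rich in the ribosomal precursor Rn45s). Those libraries are WT LPS replicate 3 with 5.92% of its counts in Rn45s, WT replicate 3 at 0.1 ng/ml with 3.62% and KO replicate 2 at 0.1 ng/ml with 8.21%. Of either list, 0 genes responded more by edgeR, DESeq2 or limma, also at an unadjusted p under 0.05. Among interferon signalling genes 5 of 18 responded less (11 with the block), and 1 responded more by each of edgeR, DESeq2 and limma. Stat3, a transducer of cytokine signals, was one of them at -1.48 ± 0.21 (adjusted p = 0.000451), with 366, 398 and 458 CPM in WT against 124 to 179.6 CPM in KO.

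Further genes of lower response in KO were Otud1 (-2.12 ± 0.39, edgeR adjusted p = 0.00343), at 107 to 122 CPM in WT with LPS, Tap1 (-1.70 ± 0.36) and Pfkp (-1.14 ± 0.22). The difference of Tlr3 was -1.98 ± 0.46 and was lost in a fit of the 4 groups alone (-1.97, adjusted p = 0.0652) and without the Rn45s-rich libraries (-1.66, adjusted p = 0.0528). In the MHC class I list 6 of 20 responded less (12 with the block, 1 in a fit of the 4 groups alone), and 2 or 3 without KO LPS replicate 2 or 3, KO untreated replicate 1 or 2, WT LPS replicate 1 or 3, or WT untreated replicate 1 or 3. Of 22 receptor and adaptor genes, 1 responded more and 1 less (6 more and 6 less with the block).
Some genes fell less in KO. Cebpa fell by 3.43 in KO and 5.51 in WT (difference 2.08 ± 0.48, edgeR adjusted p = 0.0137), a call lost without KO LPS replicate 3 (1.62, adjusted p = 0.0503). Cd300lb, an activating receptor of myeloid cells, fell from 201 to 249 CPM to 11.0, 13.5 and 23.9 CPM in KO and to 1.98, 3.67 and 2.94 CPM in WT (2.45 ± 0.46, adjusted p = 0.00367). Lyl1, a transcription factor of blood progenitors, and Tfeb differed in the same direction (2.26 ± 0.38 and 2.01 ± 0.45). For each of these 4 genes replicate 3 was the highest KO library with LPS.

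In 57 of 13294 genes tested the 2 genotypes were called in opposite directions, 25 up in KO and down in WT and 32 the other way. All were called in the difference, which is no separate evidence, since opposite changes add up in it. Irf8 had the largest of these, falling to 109 to 147 CPM in KO and rising to 1896, 2141 and 1534 CPM in WT from 287 to 326 CPM (-3.95 ± 0.21, edgeR adjusted p = 3.1e-09). Mertk fell in KO to 41.7, 27.7 and 23.1 CPM and rose in WT from 117.9, 156 and 141 CPM to 193, 285 and 203 CPM (-2.93 ± 0.34, adjusted p = 9.12e-05). Bambi, a decoy receptor of the TGF-beta family, fell in KO by 1.42 and rose in WT by 1.99 (-3.40 ± 0.51). Asap3, a regulator of ARF GTPases, fell by 1.85 and rose by 1.58 (-3.44 ± 0.62).
In the other direction, Fkbpl, a co-chaperone, rose from 9.59, 10.3 and 10.3 CPM to 23.4, 35.9 and 25.6 CPM in KO and fell to 6.03, 5.09 and 7.80 CPM in WT (2.26 ± 0.29, edgeR adjusted p = 0.000178). Trib1, a pseudokinase that directs the breakdown of C/EBP proteins, rose by 1.35 in KO and fell by 0.81 in WT (2.16 ± 0.34). Sephs2, which makes the selenium donor for selenoproteins, rose by 1.25 and fell by 0.60 (1.85 ± 0.25). Rgs2, which dampens G protein signalling, fell in both but further in KO (-3.72 against -1.34, difference -2.38 ± 0.40). Osgin1, a growth inhibitor induced by oxidative stress, was at 6.63, 8.22 and 11.9 CPM in KO and 1.73, 1.27 and 1.01 CPM in WT with LPS (difference 2.47 ± 0.45, adjusted p = 0.00317).

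**Figure D5:**
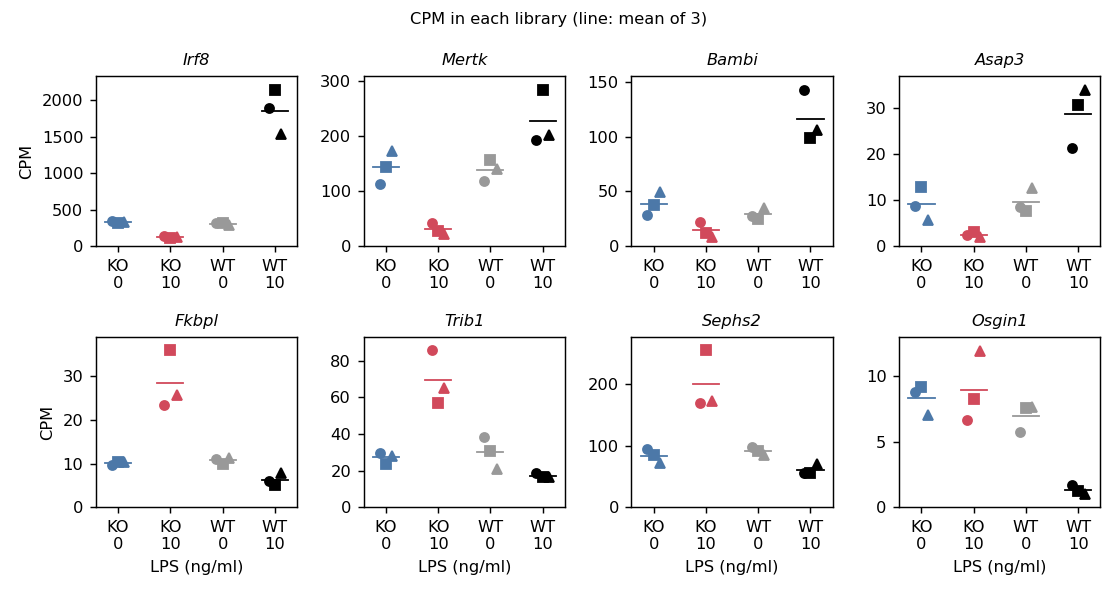
CPM (vertical axis, from 0) in each library of KO and WT cells without LPS and with LPS at 10 ng/ml (horizontal axis) for 8 genes whose responses differed, with a line at each mean. Irf8, Mertk, Bambi and Asap3 go down in KO and up in WT, Fkbpl, Trib1 and Sephs2 go up in KO and down in WT, and Osgin1 is lower in WT alone.

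The high dose was also set against the low one within KO cells. KO cells at 0.1 ng/ml had 97 genes called against untreated cells, 96 up (0.722%) and 1 down (0.00752%). The step from 0.1 to 10 ng/ml was called for 4883 genes (36.7%), 2430 up (18.3%) and 2453 down (18.5%), or 1278 up and 4939 down with library totals and 1782 up and 3226 down with upper-quartile scaling. Both comparisons use the KO library at 0.1 ng/ml with 8.21% of its counts in Rn45s, against 0.0556 to 0.525% in the 6 libraries above. Cytokine genes had a median of 0.63 at the low dose, with 2 of 22 called, and the step added a median of 4.87, with 19 called. Antiviral genes had a median of 0.39 at the low dose, and 34 of 41 were called up in the step.
Tnf was at 205, 157 and 199.7 CPM at the low dose and rose by 5.07 ± 0.50 in the step (edgeR adjusted p = 4.17e-07). Il1b rose by 6.20 ± 0.51 from 90.3, 107 and 84.6 CPM. Il6 was at 1.20, 0.787 and 0.713 CPM at the low dose, overlapping the untreated libraries, and rose by 7.76 ± 0.72. Nfkbia was at 228, 234 and 196 CPM, between the untreated and the high-dose libraries, and rose by 2.45 ± 0.24. Cxcl10 held 49.6, 65.3 and 22.3 CPM and rose by 6.20 ± 0.64, and Ifnb1, at 0 to 0.246 CPM, by 6.52 ± 0.81. Nos2, at 0.662 to 0.738 CPM at the low dose, rose by 7.74 ± 0.66, and Ifit1 by 5.84 ± 0.55. Among the falls, Cnr2 went from 27.1, 24.5 and 22.1 CPM by -5.30 ± 0.51 and Cxcr4 by -5.30 ± 0.81. Irf8 fell by 0.99 in the step, from 276, 233 and 264 CPM.

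The KO response to 10 ng/ml was last set against the WT response to 0.1 ng/ml, which shares no library with it. The WT response to the low dose had 2075 genes called (15.6%), 1322 up (9.94%) and 753 down (5.66%). Responses differed for 519 genes (3.9%), 269 higher (2.02%) and 250 lower (1.88%) in KO, or 182 higher and 492 lower with library totals. With the replicate block 4070 were called, and a fit of the 4 groups alone left 76, so the count is not firm. Without WT replicate 3 at 0.1 ng/ml, which holds 3.62% of its counts in Rn45s, 223 were called. The cytokine genes summed to 1165 CPM in that library, against 4710 and 3201 CPM in replicates 1 and 2. Antiviral genes had a median of 3.40 in WT at the low dose and 3.13 in KO at the high dose, with a median difference of 0.01. Of the 41, 0 were called in the difference by edgeR, DESeq2 or limma, and 0 at an unadjusted p under 0.05. GTPases had a median difference of -0.08, with 0 of 17 called by edgeR, DESeq2 or limma and 1 at an unadjusted edgeR p under 0.05. With 3.9% of all genes called, counts of 0 in these lists are near the share over all genes and do not show equal responses. The antiviral genes summed to 8960 to 25130 CPM in KO at the high dose and to 11770 to 23080 CPM in WT at the low dose, lowest in replicate 3 of both. NF-kB genes had a median difference of 1.15, with 7 of 14 higher in KO at the high dose (14 with the block, 10 by DESeq2). For cytokines the median difference was 1.90, with 4 of 22 higher in KO (8 with the block, 12 by limma). In both lists 0 were lower by edgeR, DESeq2 or limma, also at an unadjusted p under 0.05.
Il1b reached 1072, 498 and 187 CPM in WT cells at the low dose, below all KO libraries at the high dose (difference 3.73, edgeR adjusted p = 0.00389, and 0.0512 in a fit of the 4 groups alone). Nfkbia reached 632, 459 and 333 CPM there (1.70, adjusted p = 0.00846, and 0.0787 in that fit). Cnr2 fell to 3.28, 3.52 and 13.9 CPM in WT at the low dose and further in KO at the high dose (-3.59, adjusted p = 0.00639, and 0.061 in that fit). Irf8 was at 248, 267 and 217 CPM in WT at the low dose, where it was not called (-0.35, edgeR adjusted p = 0.123), and fell further in KO at the high dose (difference -1.03, adjusted p = 0.0111).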

How the data were processed

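The authors deposited read counts per gene symbol in 24 libraries. A second deposited table gives a normalized signal for 12889 genes, and dividing each library's counts by a single factor returns it. Per the submitters' processing notes, the tools were HTSeq 0.5.4, Bowtie2 2.1.0, DESeq, SAMtools 0.1.19, FastQC 0.10.0 and CASAVA 1.8.2, with the build mm10; their order is not given. The annotation and the use of strand are not given in the sources used here, so overlapping, antisense and near-identical genes cannot be told apart.

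The counts were fitted with edgeR 4.0.16 in R 4.3.3, with filterByExpr (minimum count 10, minimum total 15), TMM scaling, a robust quasi-likelihood model of 8 groups in 24 libraries (16 residual degrees of freedom), a prior count of 0.125 and Benjamini-Hochberg adjustment within each contrast at 0.05. The method was tested on simulated data with independent libraries and few changed genes, which leaves pairing and the scaling under a broad change untested. Same-numbered libraries of the KO groups compared deviated together (correlation 0.791 to 0.885 over 13294 genes, against -0.593 to -0.278 for other numbers), as did those within each genotype (0.674 to 0.925), so replicate numbers pair the libraries and a block nested in genotype was run as an alternative. In the main fit each p-value rests on the spread between preparations within the 8 groups, including offsets that same-numbered libraries share. The block takes those shared offsets out. Further alternatives were RLE, upper-quartile and unscaled library totals, 2 other filters, DESeq2 1.42.0, limma 3.58.1 on log2 of the deposited signal, the compared groups alone and leaving out each library.

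Gene lists, members and the comparison itself were chosen with earlier results of these data known. A fixed rule allowed Cd14, Tnf, Il1b, Il6, Il12b, Cxcl1, Cxcl10, Ccl5, Ifnb1 and Nos2, the largest changes with at least 5 CPM in each contrast, up to 4 called members and 1 uncalled member of each list, all members of the TLR4 list, and genes called in opposite directions. Among the genes allowed, those described were picked with their values and their stability in view. Ly96, Cldn5 and the collagen genes are named as markers or members. Where pooled counts of a group were 3 or lower, a ratio of pooled counts is printed.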

Additional observations from a re-analysis of the deposited data

Results flagged for a closer look

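Responses that differed between the genotypes at LPS 10 ng/ml by the test of the difference itself are collected here, as the KO response minus the WT response on the log2 scale (edgeR quasi-likelihood test). They numbered 702 genes, among them 25 genes called up in KO and down in WT and 32 called down in KO and up in WT. No cause of any of them was tested.

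Lower in KO were Ifnb1 (-5.65), Cxcl11 (-5.00), Gbp4 (-4.43), Plagl1 (-4.05), Irf8 (-3.95), Trim30b (-3.90), Cxcl9 (-3.89), Asap3 (-3.44), Bambi (-3.40), Mertk (-2.93), Rgs2 (-2.38), Otud1 (-2.12), Tlr3 (-1.98), Tap1 (-1.70), Stat3 (-1.48) and Pfkp (-1.14). Higher in KO were Osgin1 (2.47), Cd300lb (2.45), C130039O16Rik (2.34), Plk3 (2.32), Lyl1 (2.26), Fkbpl (2.26), Plekhh3 (2.24), Stk17b (2.20), Trib1 (2.16), Cebpa (2.08), Tfeb (2.01) and Sephs2 (1.85).

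Some of these calls were lost under alternatives. Trim30b lost its call in 6 of them, Cxcl9 in 6, Plagl1 in 4, Plk3 in 3, Stk17b in 2, Tlr3 in 2, Gbp4 in 1 and Cebpa in 1. Without KO LPS replicate 3 the calls of Trim30b, Cxcl9, Plagl1, Plk3, Stk17b and Cebpa were lost, with adjusted p from 0.0503 to 0.0607 (edgeR).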

How the results depend on the processing

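The 5697 calls after the high dose ran from 4296 (compared groups alone) to 7132 (library totals) outside the replicate block, which gave 8778 calls. Its step from the low dose gave 8346 with the block. The difference from WT at 10 ng/ml gave 1192 calls with library totals, 2887 with the block, 441 with the compared groups alone and 428 to 833 without single libraries. The difference from WT at 0.1 ng/ml gave 4070 with the block, 1088 by DESeq2, 76 with the compared groups alone, 177 without the 3 libraries rich in Rn45s (chosen after seeing the data) and 223 to 648 without single libraries. Among the genes followed through each alternative, the block changed the calls of Tlr4, Ly86, Cxcl2, Cxcl10, Irf1 and Cxcl9 (edgeR adjusted p = 0.0768). It also changed that of Oprd1, which is given no fold. Some uncalled genes of the text were not followed in this way. With the block 14 of 14 NF-kB genes were called up, Ikbkg among them, and 14 receptor and adaptor genes in place of 12.

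Of the uncalled results that were followed through each alternative, 5 changed sign. Other uncalled genes of the text, such as Ly96, Irf3 and Irak1, were not followed. Cd14 was at -0.20 and Stat3 at -0.28 with library totals, and Stat3 at -0.015 with upper-quartile scaling. The difference of Tnf was -0.016 with the block and ran from -0.301 to 0.407 without single libraries, negative without KO untreated replicate 2 or WT untreated replicate 1. Without single libraries Ly86 ran from -0.333 to 0.095, positive without KO LPS replicate 3, and Otud1 from -0.313 to 0.045, positive without KO untreated replicate 3. The cause was not tested.

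Of 16 genes that the rule names for the difference from WT at 10 ng/ml, 7 lost their call under at least 1 alternative (Trim30b, Cxcl9, Plagl1, Gbp4, Plk3, Stk17b and Oprd1) and 9 kept it under all. Medians of the lists of other Toll-like receptors, glycolysis, phagocytic receptors, efflux genes and 4 marker lists changed sign between scalings. With 3 libraries a group, a fold against 1 to 3 counts carries a wide counting interval.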
